A study of Saccharomyces cerevisiae with 4 samples.

Results

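The mitochondrial enzymes of the tricarboxylic acid (TCA) cycle were followed in sporulating budding yeast that had been returned to rich medium. The 10 genes, taken by name in the order of the reactions, were CIT1, ACO1, IDH1, IDH2, KGD1, KGD2, LSC1, LSC2, FUM1 and MDH1, and each was matched through its systematic name to an open reading frame (ORF) on the array, among 6218 in all. The sampled cells were SK1 diploids (GF18) in which the NDT80 gene, encoding the main activator of mid-sporulation genes, stood behind the SPS4 promoter with a 3HA tag and the KanMX6 marker. They were grown to saturation in YPD, then overnight in the acetate medium YPA, and were kept for 5.5 h in the acetate-based sporulation medium SPM. Part of the culture was then transferred to YPD, which contains glucose, and cells were harvested for RNA just before this step and 0, 20 and 40 min after it. Each of these 4 groups was measured on 1 array, with the sample in Cy5. The Cy3 channel held a common reference, the RNA of SK1 wild-type diploids (NKY1551) growing in YPA. Sample and reference therefore differed in strain, medium and dye, which cannot be told apart in a ratio to the reference. All 4 groups carried the pSPS4-NDT80 allele, so no comparison here concerns that allele.

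The TCA cycle oxidises acetyl-CoA to carbon dioxide and hands the electrons to the respiratory chain, while its intermediates feed amino acid synthesis. On acetate, the carbon source of both YPA and SPM, yeast depends on the cycle for energy, and sporulation is known to require respiration. On glucose, yeast ferments, and many genes of the cycle are known targets of glucose repression, which acts in part through the Hap2/3/4/5 activator, whereas CIT1, ACO1, IDH1 and IDH2 can also be driven by the Rtg1/Rtg3 factors of the retrograde pathway.

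Each ORF lay in 2 adjacent spots, and values are log2 ratios of sample over reference, averaged over the 2 spots and given with their SD (n = 2 spots). This SD covers noise between neighbouring spots and leaves out error of slide, labelling, hybridisation, RNA and culture. With 1 array per group no test between groups was possible and no p-value is given. A gene was counted as higher or lower when its mean and both spots passed 2-fold. Over all genes the SD between duplicate spots was 0.193 to 0.267 on an array, 51.9% to 55.8% of genes were above background in the sample channel, and 69.6% to 75.5% were above it in the reference channel. Of 10 sporulation markers, 9 were higher at 5.5 h in SPM than in the reference, where 21.7% of all genes were, and IME1 stood at -0.41. For IME2, NDT80, SPS4, HOP1, SSP2, GAS4 and SPR1 the reference was below background. Each of these was higher by at least 12.6-fold, the bound for HOP1. Of 10 markers of haploid mating type, 5 were counted as higher, 4 of them over a reference below background (STE3, STE4, STE5 and MFA1). For MFA1 the sample was below background as well. The part of the cells expressing these markers in the changes of the cycle genes was not tested.

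Transfer to YPD was followed by lower ratios of the cycle genes within 20 min. By the measured ratio all 10 genes were counted as lower at 20 min than at 5.5 h in SPM, where 15.8% of all genes were, and the median log2 change was -2.36 against -0.26 over all genes. At 40 min 9 of the 10 were counted as lower, all but ACO1, against 19.8% of all genes, with a median of -1.91 against -0.22. These counts include dim samples. With sides below background at their bound, 8 genes were lower at 20 min and 7 at 40 min, since CIT1 was bounded at less than 2-fold and LSC1 had no bound. At 0 min 2 of the 10 were lower, IDH1 and MDH1, against 4.13% of all genes, with a median of -0.92 against -0.16. None of the 10 was counted as higher than in SPM at any time. The 3 comparisons share the SPM array, so an error of that array enters all of them. No array followed cells kept in SPM or handled without a change of medium. The new medium, the handling and further time in sporulation therefore cannot be told apart in these changes. RNA came from whole cultures, in which fewer cells holding a transcript and less of it per cell cannot be told apart.

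**Figure D1:**
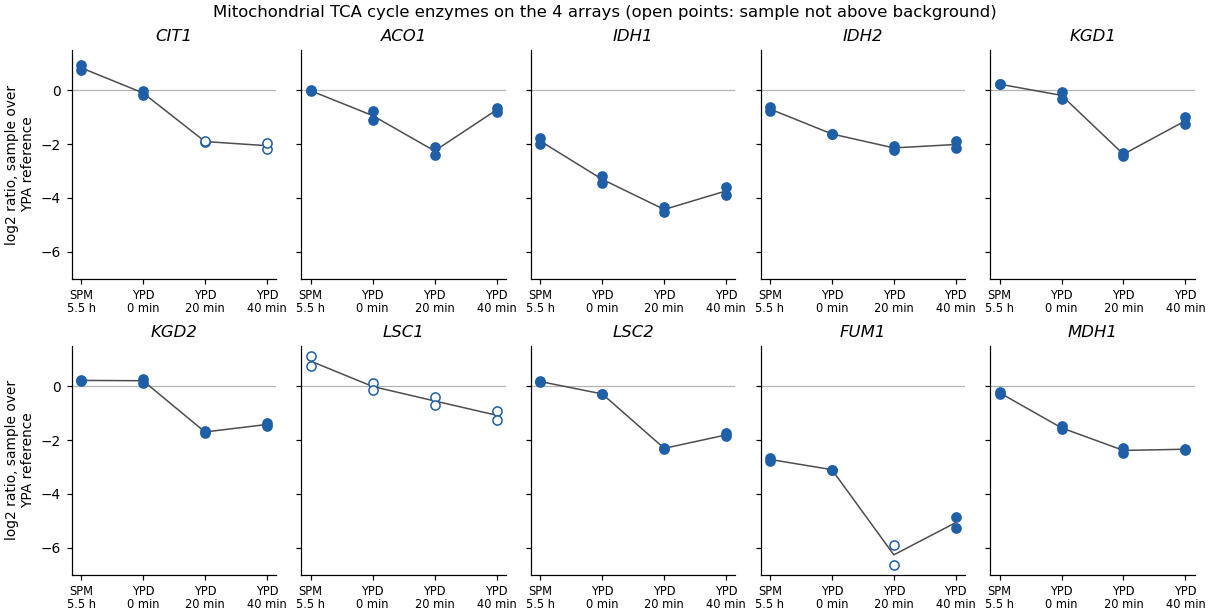
Log2 ratio of sample over YPA reference (y axis) on each of the 4 arrays (x axis) for the 10 genes in cycle order, with each of the 2 spots as a point and a line through their mean. Open points mark arrays on which the sample was not above background. The measured ratio of each gene was lower at 20 min than in SPM, and LSC1 was below background throughout.

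Before the transfer the set was close to the reference as a whole but uneven within. At 5.5 h in SPM the median log2 ratio to the YPA reference was 0.08 over the 10 genes and 0.01 over all genes. The range ran from -2.72 for FUM1 to 0.93 for LSC1, which was below background in both channels. Among the genes above background the highest was CIT1, at 0.83. Lower than the reference were 2 genes, IDH1 and FUM1, against 18.1% of all genes. The other 8 genes lay within 2-fold of the reference in SPM as reported, whereas with a separate loess for each print-tip block IDH2 stood at -2.25 and IDH1 at -1.04.

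CIT1 encodes the mitochondrial citrate synthase, which joins acetyl-CoA to oxaloacetate and opens the cycle. Its log2 ratio stood at 0.83 ± 0.14 in SPM, -0.10 ± 0.10 at 0 min, -1.91 ± 0.03 at 20 min and -2.06 ± 0.16 at 40 min. The measured change against SPM was -2.74 ± 0.11 at 20 min and -2.89 ± 0.03 at 40 min. The sample was not above background at those times, so the fall is only bounded. CIT1 was lower by at least 1.63-fold at 20 min and by at least 1.40-fold at 40 min.

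ACO1 encodes aconitase, which turns citrate into isocitrate. Its log2 ratio stood at -0.02 ± 0.02 in SPM, -0.94 ± 0.24 at 0 min, -2.25 ± 0.19 at 20 min and -0.73 ± 0.09 at 40 min. It was thus lowest at 20 min and nearer to its SPM ratio at 40 min, at a change of -0.71 ± 0.07. ACO1 was the brightest of the 10, with raw reference intensities of 60048 to 65535 on the 4 arrays, where 65535 is the ceiling of a 16-bit scanner image. Its ratio at 20 min depended on the normalization, with a change against SPM of -2.23 as reported, -1.16 after scaling to the array median and -0.69 with a separate loess for each print-tip block.

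IDH1 and IDH2 encode the regulatory and the catalytic subunit of the NAD-dependent isocitrate dehydrogenase, which releases the first carbon dioxide of the cycle. IDH1 stood at -1.89 ± 0.17 in SPM, -3.31 ± 0.20 at 0 min, -4.43 ± 0.12 at 20 min and -3.74 ± 0.20 at 40 min. Its sample channel was above background on all 4 arrays, so its changes against SPM were measured on both sides, at -1.42 ± 0.03, -2.54 ± 0.05 and -1.85 ± 0.03 for 0, 20 and 40 min. IDH2 stood at -0.70 ± 0.09 in SPM, -1.62 ± 0.02 at 0 min, -2.14 ± 0.08 at 20 min and -2.01 ± 0.19 at 40 min. The partner subunit therefore moved less. The change of IDH1 minus that of IDH2 reached -0.49 ± 0.12, -1.09 ± 0.05 and -0.53 ± 0.11 at 0, 20 and 40 min. The direction of the IDH2 change depended on the normalization. Against SPM it changed by -1.44 at 20 min and -1.32 at 40 min as reported, whereas after loess within each print-tip block these values were 0.78 and 0.71.

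KGD1 and KGD2 encode the dehydrogenase and the succinyl-transferase component of the 2-oxoglutarate dehydrogenase complex, the second decarboxylating step. KGD1 stood at 0.22 ± 0.01 in SPM, -0.19 ± 0.20 at 0 min, -2.38 ± 0.09 at 20 min and -1.13 ± 0.19 at 40 min. KGD2 stood at 0.21 ± 0.02 in SPM, 0.20 ± 0.09 at 0 min, -1.70 ± 0.07 at 20 min and -1.42 ± 0.06 at 40 min. Both kept near their SPM ratio at 0 min, with changes of -0.42 ± 0.21 and -0.01 ± 0.11, and both were more than 2-fold lower at 20 and 40 min. After scaling to the array median the changes at 20 min were smaller, at -1.85 for KGD1 and -1.07 for KGD2, against -2.60 and -1.91 as reported. KGD1 was the lower of the pair at 20 min, by a difference of -0.69 ± 0.09, and at 40 min the difference was 0.28 ± 0.19.

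LSC1 and LSC2 encode the alpha and the beta subunit of succinyl-CoA ligase, the step that makes ATP directly in the cycle. LSC2 stood at 0.17 ± 0.02 in SPM, -0.29 ± 0.02 at 0 min, -2.31 ± 0.02 at 20 min and -1.81 ± 0.08 at 40 min. LSC2 was above background on all arrays and fell by 2.48 ± 0.01 at 20 min and 1.98 ± 0.10 at 40 min on the log2 scale. At 20 min the change was smaller in the other normalizations, at -1.57 after scaling to the array median, -1.49 after print-tip loess and -1.73 in the authors' value table. LSC1 had measured ratios of 0.93 ± 0.26, -0.01 ± 0.20, -0.55 ± 0.22 and -1.08 ± 0.24 in the same order. Neither channel was above background for LSC1 on any array, so no fold is given and its place among the lower genes rests on dim spots.

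FUM1 encodes fumarase, which hydrates fumarate to malate in the mitochondria and in the cytosol. FUM1 had the lowest ratio to the reference on 3 of the 4 arrays, with -2.72 ± 0.09 in SPM, -3.10 ± 0.00 at 0 min, -6.26 ± 0.51 at 20 min and -5.07 ± 0.29 after 40 min, while IDH1 was lower at 0 min. Against SPM it changed by -0.38 ± 0.09, -3.54 ± 0.41 and -2.34 ± 0.19 at 0, 20 and 40 min. The raw sample intensity of its 2 spots was 4511 and 4635 in SPM, 2938 and 2717 at 0 min, 407 and 438 at 20 min, then 1803 and 2315 at 40 min. At 20 min the sample was not above background, and FUM1 was at least 3.96-fold lower than in SPM. Loess within each print-tip block gave a smaller change at 40 min, -0.74.

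MDH1 encodes the mitochondrial malate dehydrogenase, which closes the cycle by restoring oxaloacetate. It stood at -0.25 ± 0.04 in SPM, -1.55 ± 0.07 at 0 min, -2.39 ± 0.15 at 20 min and -2.34 ± 0.02 after 40 min. MDH1 and IDH1 were the genes already past 2-fold at 0 min, where MDH1 had changed by -1.30 ± 0.03, although after print-tip loess this was -0.85, and in the sample channel alone IDH1 was at -0.98. From 20 to 40 min MDH1 changed by 0.05 ± 0.17 as reported, by 0.73 in the sample channel and by 2.21 after print-tip loess.

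**Figure D2:**
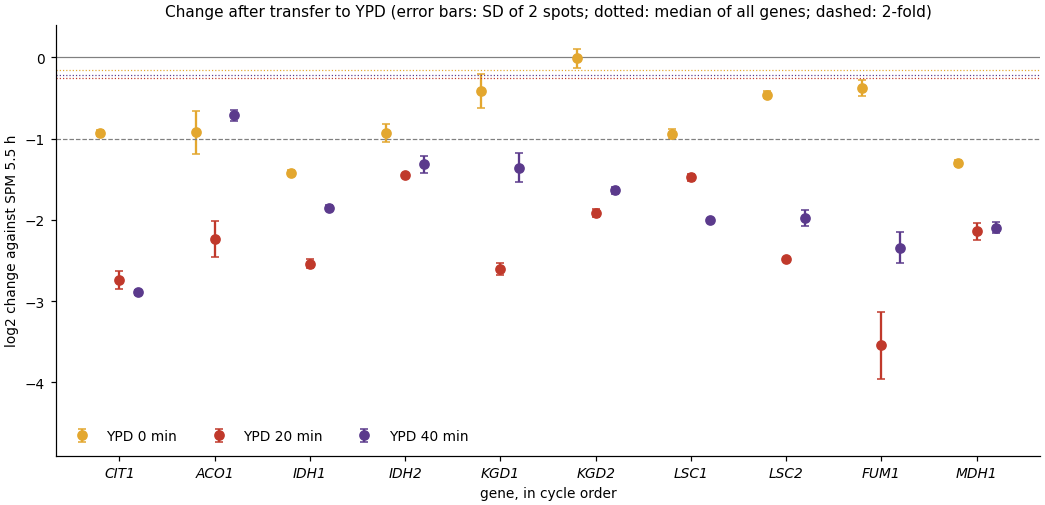
Log2 change against SPM 5.5 h (y axis) at 0, 20 and 40 min for the 10 genes in cycle order (x axis), with the SD of the 2 spots as error bars. Dotted lines give the median change of all genes and the dashed line marks a 2-fold decrease. The 20 min points lie between -3.54 and -1.44, all below the dashed line, and at 40 min ACO1, at -0.71, is the one above it. LSC1 throughout, CIT1 at 20 and 40 min and FUM1 at 20 min rest on samples below background.

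The reported values differed in when they dropped. At 0 min CIT1, ACO1, IDH1, IDH2 and MDH1 had changes between -1.42 and -0.92, whereas KGD1, KGD2, LSC2 and FUM1 lay between -0.46 and -0.01. This division depended on the processing, since ACO1 was at -0.05 after print-tip loess and CIT1 was at -0.43 in the sample channel alone. Between 0 and 20 min 7 of the 10 were counted as lower (CIT1, ACO1, IDH1, KGD1, KGD2, LSC2 and FUM1), against 7.51% of all genes. Among genes above background at both times, KGD1 changed by -2.19 ± 0.29, LSC2 by -2.02 ± 0.03 and KGD2 by -1.90 ± 0.17. FUM1, dim at 20 min, was lower by at least 3.82-fold, and CIT1 by at least 1.21-fold. MDH1 and IDH2 had changes of -0.84 ± 0.07 and -0.52 ± 0.11 in this interval. Across the alternative settings the count for this interval was 4 to 7.

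From 20 to 40 min some of the drop was regained in the reported values. ACO1 was higher by 1.52 ± 0.29 on the log2 scale, KGD1 by 1.24 ± 0.11 and FUM1 by 1.20 ± 0.22, and these 3 were counted as higher against 4.05% of all genes. Of the others, IDH1, IDH2, KGD2, LSC2 and MDH1, above background at both times, changed by between 0.05 ± 0.17 for MDH1 and 0.69 ± 0.09 for IDH1. This recovery depended on the normalization. The reported median of the 10 genes was 0.39, near the 0.36 of the brightest 10% of all genes. After scaling to the array median IDH2, KGD2 and LSC2 changed by -0.40, -0.46 and -0.33, while IDH1 was 0.63 higher. ACO1 was 0.18 higher after scaling to the array median and 0.25 higher in the authors' value table, and KGD1 was 0.62 and 0.68 higher. FUM1 was 1.34 and 0.65 higher, but over a 20 min sample below background, which bounds its increase at no less than 1.09-fold. ACO1, KGD1 and FUM1 stayed above 0 in every setting run, as did IDH1, which was not counted as higher.

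Most of these genes gave very bright spots. By mean intensity over the 4 arrays, 8 of the 10 (all but CIT1 and LSC1) were among the brightest 10% of genes, a set of 622. In that set the normalizations differed. The median change of this set at 20 min against SPM was -0.72 after loess and -0.16 after scaling to the array median. The median of the 10 cycle genes lay below that of the bright genes by a like amount either way, with a difference of -1.64 after loess and -1.56 after scaling to the array median. At 40 min the corresponding differences were -1.59 and -1.66, and at 0 min they were -0.97 and -0.97. From 20 to 40 min they were 0.03 and 0.08.

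**Figure D3:**
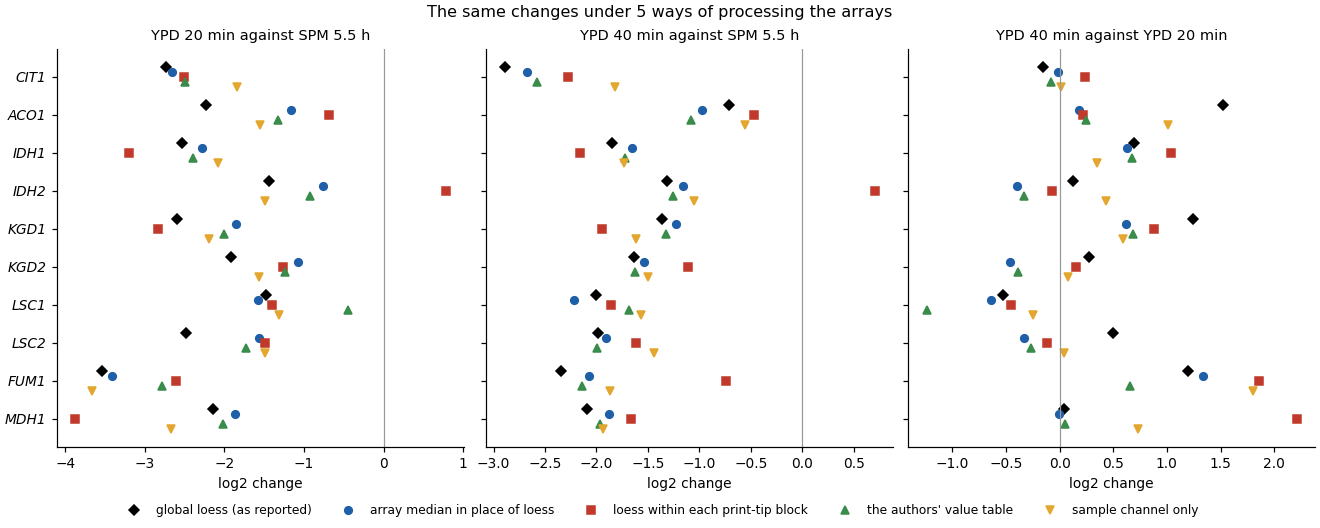
Log2 change of each gene (x axis) at 20 and 40 min against SPM and at 40 min against 20 min, with 1 marker for each of 5 ways of processing the arrays. Changes against SPM lie below 0 in all cases except IDH2 after loess within each print-tip block, at 0.78 and 0.71, whereas values at 40 against 20 min lie on both sides of 0 for several genes.

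The subunits of the cycle outside the 10 genes also had lower measured ratios after the transfer. Of the 6 genes of succinate dehydrogenase and the shared dehydrogenase subunits, 5 were lower at 20 min, with a median of -2.29, and 4 at 40 min, with a median of -1.33. Over all genes 15.8% and 19.8% were lower at these times. Only 3 of the 6 were above background throughout, and their medians were smaller falls, at -1.98 and -1.04. SDH1, the flavoprotein subunit that oxidises succinate, changed by -1.33 ± 0.29, -1.98 ± 0.13 and -1.04 ± 0.12 at 0, 20 and 40 min against SPM. The membrane anchor genes SDH3 and SDH4 changed by -2.87 ± 0.24 and -2.62 ± 0.10 at 20 min and by -1.62 ± 0.14 and -2.83 ± 0.01 at 40 min. SDH3 was not above background at 20 min and was at least 5.10-fold lower. SDH2, the iron-sulphur subunit, changed by -0.70 ± 0.03 at 20 min and -1.03 ± 0.03 at 40 min in the measured ratio, with the sample below background at both times. KGD4 encodes a subunit that binds the shared dehydrogenase to the 2-oxoglutarate complex. Its measured changes were -2.61 ± 0.25 at 20 min and -2.97 ± 0.20 at 40 min, with the sample below background at both times. LPD1, the dihydrolipoamide dehydrogenase shared with the pyruvate dehydrogenase complex, changed by -1.70 ± 0.09 at 20 min and -0.81 ± 0.01 at 40 min.

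Isozymes of the cycle enzymes that work in other compartments, and minor isozymes or paralogues such as CIT3, SHH3 and SHH4, followed different courses. Of 10 such genes, 5 were lower and 0 were higher at 20 min (median -0.93), and 2 were lower and 2 were higher at 40 min (median 0.25). Over all genes, 15.8% were lower and 11.5% higher at 20 min, and 19.8% were lower and 13.9% higher at 40 min. The count of lower isozymes at 40 min was thus near the share of all genes. The median of the 10 TCA cycle enzymes at 40 min was -1.91.

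CIT2, the peroxisomal citrate synthase and a standard target of the retrograde pathway, had dropped further than CIT1 at 0 min. CIT2 changed by -2.94 ± 0.10 at 0 min and -1.96 ± 0.13 at 40 min, and the change of CIT1 minus that of CIT2 was 2.00 ± 0.11 at 0 min. At 20 and 40 min CIT1 was below background, so no difference is given. CIT3, a minor mitochondrial citrate synthase, changed by -1.81 ± 0.08 at 20 min and -1.73 ± 0.12 at 40 min. The probes are PCR products of ORFs, and cross-hybridisation between related genes was not tested.

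At 0, 20 and 40 min MDH2, the cytosolic enzyme of gluconeogenesis, changed by -1.81 ± 0.15, -1.15 ± 0.04 and -0.24 ± 0.08. MDH3, the peroxisomal enzyme, changed by -0.20 ± 0.05, -0.72 ± 0.07 and 0.70 ± 0.07. At 40 min the change of MDH1 was below that of MDH2 by -1.86 ± 0.10 and below that of MDH3 by -2.80 ± 0.09. IDP2, the cytosolic NADP-dependent isocitrate dehydrogenase, changed by -1.16 ± 0.09, -1.75 ± 0.02 and 0.25 ± 0.02 at 0, 20 and 40 min, whereas IDH1 and IDH2 were counted as lower at 40 min. SHH4, a paralogue of the anchor gene SDH4, changed by 1.82 ± 0.34 at 40 min. SHH3, the paralogue of SDH3, was at least 3.28-fold higher at 40 min, having been below background in SPM.

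**Figure D4:**
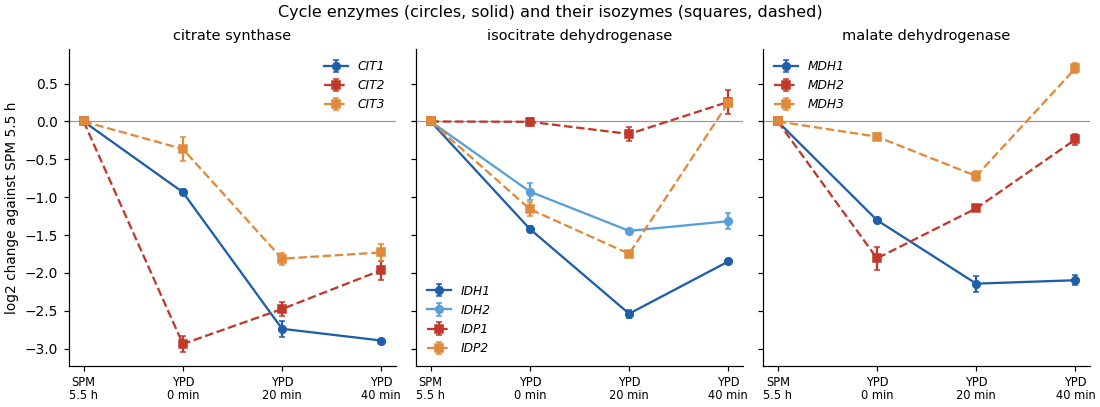
Log2 change against SPM 5.5 h (y axis) on the 4 arrays (x axis, SPM set to 0) for cycle enzymes (circles, solid lines) and isozymes (squares, dashed lines), with the SD of the 2 spots as error bars. CIT1 was below background at 20 and 40 min. At 40 min MDH1 lies at -2.10 where MDH2 and MDH3 are at -0.24 and 0.70.

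The list for the entry of pyruvate and the refilling of the cycle also held enzymes of neighbouring steps, such as MAE1. Of its 11 genes, 5 were lower and 1 was higher at 20 min (median -0.90), and 3 were lower and 1 was higher at 40 min (median -0.39). Over all genes, 15.8% were lower and 11.5% higher at 20 min, and 19.8% and 13.9% at 40 min. MPC3, a subunit of the mitochondrial pyruvate carrier used in respiring cells, changed by -2.03 ± 0.03 at 40 min, and PDX1, which anchors the dehydrogenase subunit to the pyruvate dehydrogenase complex, by -1.83 ± 0.15. MPC1, the constant subunit of the carrier, was at least 2.83-fold lower at 40 min. The gene that rose was MAE1, the mitochondrial malic enzyme, by 2.00 ± 0.15 at 20 min and 1.78 ± 0.21 at 40 min. PCK1, which draws oxaloacetate into gluconeogenesis, had a change of -0.27 ± 0.07 at 20 min.

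In the glyoxylate cycle, the bypass that lets yeast build sugars from acetate, 3 of 5 genes were lower at 20 min, against 15.8% of all genes. At 40 min 1 was lower and 1 higher (median 0.70), against 19.8% and 13.9% of all genes. That median is the value of MDH3, which like CIT2 is also described among the isozymes, so the 2 groups are not independent. It includes DAL7, whose sample was below background in SPM and at 40 min. Over the 4 genes above background throughout, the median at 40 min was 0.15. MLS1, the malate synthase, changed by -1.69 ± 0.30 at 0 min, -2.06 ± 0.00 at 20 min and 1.12 ± 0.01 at 40 min. ICL1, the isocitrate lyase, changed by -1.43 ± 0.07 at 20 min and -0.40 ± 0.08 at 40 min. At 40 min CIT2 was the only gene of the 5 still counted as lower, where 9 of the 10 TCA cycle enzymes were in the measured ratio.

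Of 7 mitochondrial carriers of cycle intermediates, 1 was lower and 2 were higher at 20 min (median 0.93), against 15.8% and 11.5% of all genes. This median rests largely on dim spots. Only 2 of the 7 carriers, YHM2 and ODC1, were above background throughout. They changed in opposite directions at 20 min, so their median of -0.10 describes neither. CTP1, the citrate carrier, had a measured change of 2.04 ± 0.31 at 40 min, with the sample below background in SPM. YHM2, which exchanges citrate for 2-oxoglutarate, changed by 1.22 ± 0.03 at 20 min, and ODC1, an oxodicarboxylate carrier, by -1.42 ± 0.23. Among 5 genes of 2-oxoglutarate and glutamate use, 2 were lower and 1 was higher at 20 min, against the same shares of all genes. None of these 5 passed 2-fold at 40 min, where 19.8% of all genes were lower and 13.9% higher. GDH1, the glutamate dehydrogenase of ammonium assimilation, was counted as higher at 20 min, and it changed by 1.58 ± 0.12 at 0 min and -0.27 ± 0.11 at 40 min.

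**Figure D5:**
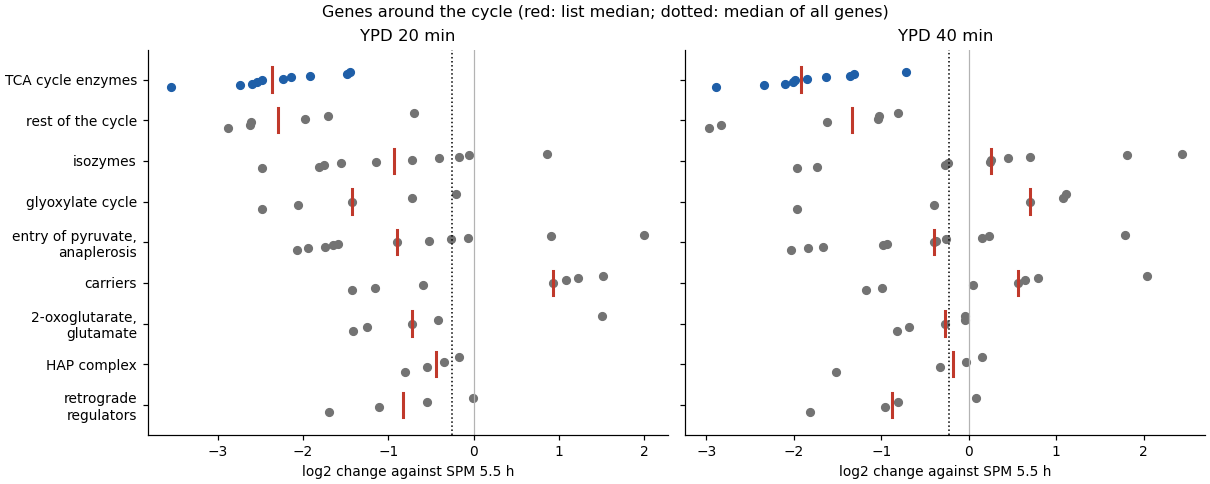
Log2 change against SPM 5.5 h (x axis) at 20 and 40 min for every gene of the TCA cycle enzymes (blue) and of the 8 gene groups around them (grey), with group medians as red bars and the median of all genes as a dotted line. The TCA cycle enzymes lie wholly left of the dotted line, with medians of -2.36 and -1.91, as does the rest of the cycle, and the other groups reach to its right.

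Transcripts of the known regulators of the cycle differed among themselves. HAP4, the subunit that limits the Hap2/3/4/5 activator, had a ratio to the reference of -0.35 ± 0.02 in SPM and changes of 0.25 ± 0.03, -0.17 ± 0.12 and 0.15 ± 0.05 at 0, 20 and 40 min. HAP2 changed by -0.34 ± 0.01 at 20 min and -0.03 ± 0.13 at 40 min. The HAP5 sample was not above background in SPM or at any time after the transfer. HAP3 was at least 1.47-fold lower at 40 min, the only HAP gene counted as lower in the measured ratio. RTG1, a retrograde factor, was lower by at least 1.47-fold at 20 min and by at least 1.26-fold at 40 min, and its partner RTG3 changed by 0.00 ± 0.24 and 0.08 ± 0.22. These are transcript levels and give no measure of the activity of either pathway.

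Outside all of these groups, the genes whose log2 ratios over the 4 arrays lay nearest to the median course of the 10 (0.08, -0.62, -2.28 and -1.91) were RPN5, NDE1, TMA10, RPN12 and GUT2, among 1941 genes above background throughout. Their Euclidean distances from that course were 0.403, 0.432, 0.473, 0.505 and 0.547. RPN5 and RPN12 encode subunits of the proteasome lid, and NDE1 and GUT2 encode mitochondrial dehydrogenases for cytosolic NADH and glycerol 3-phosphate. NDE1, for example, stood at -0.31 in SPM, -0.47 at 0 min, -2.34 at 20 min and -1.82 at 40 min.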

How the data were processed

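The authors used spotted arrays, each probe a PCR product of 1 yeast ORF, and quantified the scans with QuantArray (version 3). The deposited scanner files list 1 row per spot and, per the file headers, hold linear spot intensity and local background intensity for both channels, not yet normalized. A value table deposited by the authors gives log2 ratios (background subtracted, dim values raised to the buffer-spot mean, array median subtracted) and served as an alternative. It was set against the scanner ratios scaled to the array median (r = 0.987 to 0.999 across 5506 to 5510 genes per array, column medians of 0), which fixed its scale, centring and direction. The dye fields give Cy5 as the sample, whereas the labelling text names the dyes in the opposite order. No dye swap was made.

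Intensities were background-corrected by normexp (offset 50, limma 3.58.1, R 4.3.3). Global loess was then run on each array, giving weight 0 to 236 buffer spots and 384 Arabidopsis spots. Log2 ratios were centred on the gene-spot median and the 2 spots of a gene averaged. On the 0 min array 17 spots carrying an ignore flag were left out. Changes are differences of log2 ratios between arrays. A side was above background if either spot passed the 95th percentile of buffer spots. Otherwise the fold is a lower bound, taken per channel after loess and Aquantile against the higher of the dim side's value and the lowest value above background, and open to dye bias against the reference. Where both sides were below background no fold was computed. Bounds between arrays are on the scale of the sample channel, and where one exceeded the measured ratio the ratio is given in its place. The alternative named sample channel only uses these Cy5 values. The pipeline was tested on simulated data.

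The 10 genes and the gene lists around them were chosen with earlier results of these data known. All 10 are described. From each list, genes past 2-fold at 20 or 40 min could be named, with values for at most 4 per direction, besides CIT2, IDP2, MDH2, MDH3 and SDH1 to SDH4. A planned comparison gene is not reported here. PCK1, HAP2, HAP4, HAP5, RTG3 and the named sporulation and mating-type markers were chosen after their values were seen. Of 6218 ORFs, 5663 were found by systematic name in the RefSeq table of assembly R64. This table gave names only, since the sources used here do not state the build from which the array was designed. Promoter and protein sequences were not analysed here. The number of arrays limits the precision.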

Additional observations from a re-analysis of the deposited data

How the results depend on the processing

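The fall of the set at 20 and 40 min kept its direction in all alternatives run. At 20 min 7 to 10 genes were lower (7 of 7 among genes above background in both channels throughout) and at 40 min 6 to 10. The median at 20 min was -1.72 after scaling to the array median, -1.87 in the authors' value table and -1.71 in the sample channel alone, and at 40 min it was -1.59 in the sample channel. At 0 min 4 genes were lower in the value table, 4 by the second spot alone, 6 at 1.5-fold and 1 in the sample channel, where the median was -0.51. Against the reference in SPM, 1 gene was lower among those above background throughout. After print-tip loess MDH1 stood at 0.37 against the reference in SPM, and IDH2 at 0.78 and 0.71 against SPM at 20 and 40 min.

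Alternatives for successive times were added after seeing the data. From 0 to 20 min 4 genes were lower both after array-median scaling and in the value table, with medians of -0.999 and -0.965. IDH2 then changed by 0.15 and 0.18, and by 1.55 after print-tip loess, and LSC1 by 0.024 in the value table. From 20 to 40 min 1 gene was higher after array-median scaling, 0 in the value table and 1 in the sample channel. The median was -0.012 after array-median scaling and -0.014 in the value table, and LSC2 changed by -0.33 after array-median scaling, -0.12 after print-tip loess and -0.27 in the value table. The causes of these shifts were not tested.

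No paired analysis was possible because each group has 1 array, and leaving out an array removes its group. Genes below background (LSC1 throughout, CIT1 at 20 and 40 min, FUM1 at 20 min) and near the scanner ceiling (ACO1) have the least certain sizes of change.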
